A study of Caenorhabditis elegans with 17 samples.

Results

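The mitochondrial unfolded protein response is a transcriptional program that cells run when proteins misfold in mitochondria or when mitochondrial import fails. The genes described here are 10 *C. elegans* genes of that program, chosen by name, with earlier results of these data known: the regulators *atfs-1*, *dve-1*, *ubl-5* and *haf-1*, the chaperones *hsp-6* and *hsp-60*, and the proteases *clpp-1*, *lonp-1*, *ymel-1* and *spg-7*. Each of the 10 names matched 1 of the 21459 genes in the deposited table of oocyte mRNA. The labels list 17 libraries of oocytes, 8 from mothers cultured at 300 mM NaCl and 9 from mothers on control NGM, the standard agar medium for worms. Exposure ran from the L4 stage to the first day of adulthood. By the study's account, the control medium also contains NaCl, at a lower concentration. The study describes the animals as wild type and the sample as the oocytes nearest the spermatheca of a single animal, cut from the gonad arm with a little gonadal sheath attached. Library titles give 3 different numbers in both groups, each followed by a letter. The study's supplement states fewer replicates per condition than the labels list libraries, and does not say which libraries make up a replicate.

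The deposited table holds 1 measured value for each gene, the authors' mean normalized count, which averages read counts over the libraries entered in their comparison after a correction for library size. This mean pools libraries from 300 mM NaCl and control mothers, and no column gives the value of a single library. The effect of maternal NaCl on the 10 genes was therefore not analysed here, and no standard deviation, interval or test can be attached to any level below. Whether a difference in level between 2 genes is larger than the spread between libraries cannot be told. To compare genes of different length, the authors' mean was divided by the length of the gene's merged exons in kb, the level per kb in what follows. Levels per kb of all 17713 protein-coding genes in the table had a median of 17.7, a 75th percentile of 214 and a 90th percentile of 471.

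In healthy mitochondria the transcription factor ATFS-1 is imported and degraded, and when import falls it enters the nucleus and turns on chaperones and proteases that act inside the organelle. The chaperones HSP-6 and HSP-60 fold imported proteins in the matrix, and their promoters drive the standard fluorescent reporters of the response. CLPP-1 and LONP-1 degrade proteins in the matrix, while YMEL-1 and SPG-7 belong to the AAA proteases of the inner membrane. Oocytes carry nearly all the mitochondria that an embryo inherits.

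The label of the samples as oocytes was first checked against markers of cell types. All 8 oocyte markers had levels per kb between 1011 (*oma-1*) and 1744 (*pos-1*), above the 90th percentile of protein-coding genes. The 5 gonadal sheath markers ranged from 29.1 (*ceh-18*) to 1117 (*inx-8*) with a median of 129, and the dissection leaves some sheath. The 3 body muscle markers ranged from 48.4 (*myo-3*) to 268 (*unc-15*) with a median of 114. Levels of 5 intestine markers ran from 4.48 (*ifb-2*) to 74.4 (*vit-2*) with a median of 19.4. Those of 5 sperm markers ran from 1.75 (*spe-9*) to 19.4 (*spe-11*) with a median of 6.88. Ranges of the sheath, body muscle and intestine markers overlapped, so marker levels alone do not tell how much sheath RNA was present. In bulk RNA of this kind, the share of each transcript that came from oocyte and from sheath cannot be told apart.

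All 10 genes lay above the median protein-coding gene in level per kb, 8 lay above the 75th percentile and 2 above the 90th. Their median was 353 per kb, which is 20.0 times the median of protein-coding genes. Against the 10562 protein-coding genes with a mean normalized count of 10 or more, it was 2.42 times the median, with 9 of the 10 above the median and 5 above the 75th percentile. Between *clpp-1* at the top and *haf-1* at the bottom the levels differed 19.0-fold, and 5 of the 10 fell between 300 and 500 per kb. Together the 10 genes held 0.198% of the summed mean normalized counts of the table. These are descriptions of abundance in a pool of both groups, and they say nothing on induction.

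**Figure D1:**
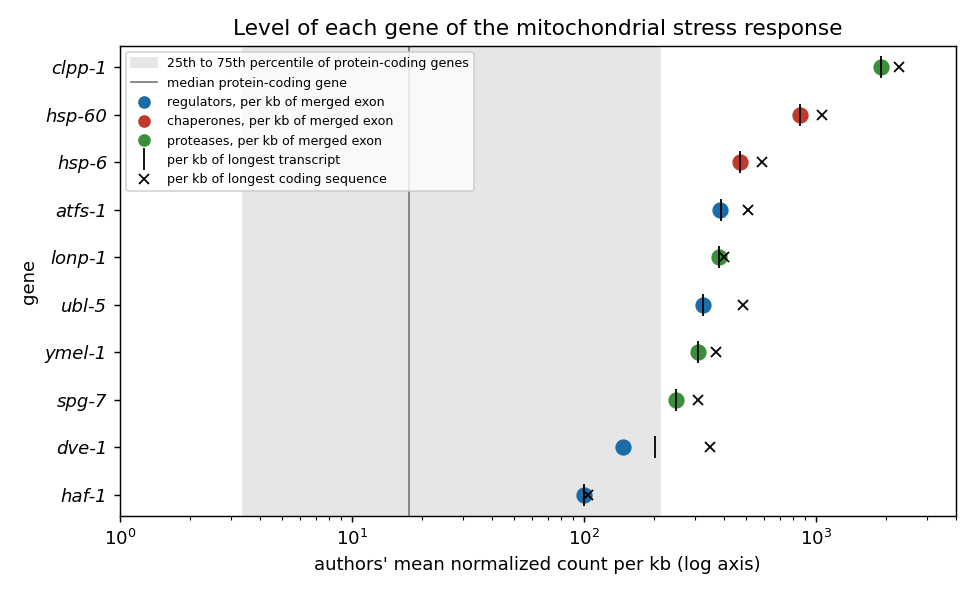
Authors' mean normalized count per kb on a log axis for the 10 genes, highest at the top. Filled circles divide by merged exons and are coloured by role, bars divide by the longest transcript and crosses by the longest coding sequence. The shaded band and the line give the 25th to 75th percentiles and the median of protein-coding genes. *clpp-1* stood highest at 1905 per kb, and the circles of *haf-1* and *dve-1* lay inside the band.

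Among the chaperones, *hsp-60* had the highest mean normalized count of the 10 genes. *hsp-60* (WBGene00002025) lies at positions 1619742 to 1625803 of chromosome III in the WBcel235 build, on the forward strand, and encodes the mitochondrial chaperonin, a barrel in which proteins fold. Its authors' mean normalized count was 1805 and its level was 851 per kb, higher than 97.7% of protein-coding genes. *hsp-6* (WBGene00002010, reverse strand of chromosome V from 4824124 to 4826760) encodes the mitochondrial Hsp70, which pulls proteins in through the import channel. Its mean normalized count was 1155 and its level was 469.5 per kb, higher than 89.9% of protein-coding genes. The level per kb of *hsp-60* was 1.81 times that of *hsp-6*, and neither gene overlaps another annotated gene.

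Both chaperone genes had abundant neighbours on the opposite strand. The nearest protein-coding gene to *hsp-60* is *Y22D7AL.10*, which is transcribed away from it, starts 812 bases from it and had a level of 967 per kb. The ratio of *hsp-60* to *Y22D7AL.10* was 0.88 per kb of merged exon and 0.64 per kb of coding sequence. The gene next to *hsp-6* on the opposite strand, *C37H5.5*, is separated from it by 599 bases and had a level of 372 per kb. Within the Hsp70 family, the level per kb of *hsp-6* was 0.24 times that of *hsp-1*, the constitutive cytosolic Hsp70, and 0.65 and 0.61 times those of *hsp-3* and *hsp-4*, which encode Hsp70 chaperones of the endoplasmic reticulum. *hsp-3* and *hsp-4* are close copies between which reads could be split. *dnj-10*, which encodes a mitochondrial J protein partner of Hsp70, had a level of 310.2 per kb, so that *hsp-6* stood 1.51 times higher.

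Among the proteases, *clpp-1* stood apart from the other 3. *clpp-1* (WBGene00014172, reverse strand of chromosome II from 10300714 to 10302842) encodes the proteolytic subunit of the matrix ClpXP protease. Its mean normalized count was 1507 over only 791 bases of merged exon, which gave a level of 1905 per kb, the 53rd highest of the protein-coding genes. This level was 2.24 times that of *hsp-60*, the next of the 10 genes, and exceeded that of each of the 8 oocyte markers. It was close to the median of 1981 per kb over the 12 protein-coding genes of mitochondrial DNA. *clpp-1* was the highest of the 10 genes per kb under each length used, but its place above the oocyte markers depended on the length. Per kb of coding sequence, *clpp-1* was at 2272, below the oocyte marker *pos-1* at 2459. Without division by length, its count was higher than 97.3% of protein-coding genes. That count lay below all 8 oocyte markers, the lowest of which was *oma-1* at 1821. Within the span of *clpp-1* lies *mdt-22*, a gene on the opposite strand with a level of 1362 per kb. The span also holds 2 annotated tRNA genes and *ZK970.11*, a gene of a non-coding RNA with a level of 23.4 per kb. No exon base of *clpp-1* is shared with an exon of another gene.

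The other proteases had levels per kb near one another. *lonp-1* (WBGene00016391, reverse strand of chromosome I from 10676922 to 10682374) encodes the Lon protease of the matrix, which also degrades imported ATFS-1. Its mean normalized count was 1168 and its level was 382 per kb. *ymel-1* (WBGene00010842, forward strand of chromosome III from 10416139 to 10421757) encodes the AAA protease that faces the intermembrane space, and had a mean normalized count of 804 and a level of 311 per kb. *spg-7* (WBGene00004978, forward strand of chromosome I from 3467132 to 3478517) encodes a subunit of the AAA protease that faces the matrix, and its RNAi is a common way to set off the response. Its mean normalized count was 731 and its level was 250.3 per kb. The level per kb of *clpp-1* was 4.99 times that of *lonp-1*, while *ymel-1* stood at 1.24 times *spg-7*. *ppgn-1*, the paraplegin subunit of the same protease family as *spg-7*, had a level of 246 per kb. The ratio of *spg-7* to *ppgn-1* was 1.02 per kb of merged exon and 1.19 per kb of coding sequence.

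Per kb of merged exon, the regulators had a median of 236, against 346 for the proteases and 660.3 for the chaperones. Per kb of the longest coding sequence, the regulators lay above the proteases, with medians of 417 for the regulators, 386 for the proteases and 823 for the chaperones. *atfs-1* (WBGene00013878, forward strand of chromosome V from 14193663 to 14197700) was the highest of the 4, with a mean normalized count of 747 and a level of 388 per kb, higher than 85.8% of protein-coding genes. Its level was 1.02 times that of *lonp-1*, and 10.5 times that of *zip-3*, a bZIP factor that represses genes of the response. Per kb of coding sequence *atfs-1* stood at 1.27 times *lonp-1*, and by mean normalized count it lay below *lonp-1*. *ubl-5* (WBGene00006726, reverse strand of chromosome I from 5607826 to 5608841) encodes a small ubiquitin-like protein that binds DVE-1. It had the lowest mean normalized count of the 10 genes, 106, and the shortest exons, 327 bases in all, so that its level per kb, 325, ranked sixth.

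**Figure D2:**
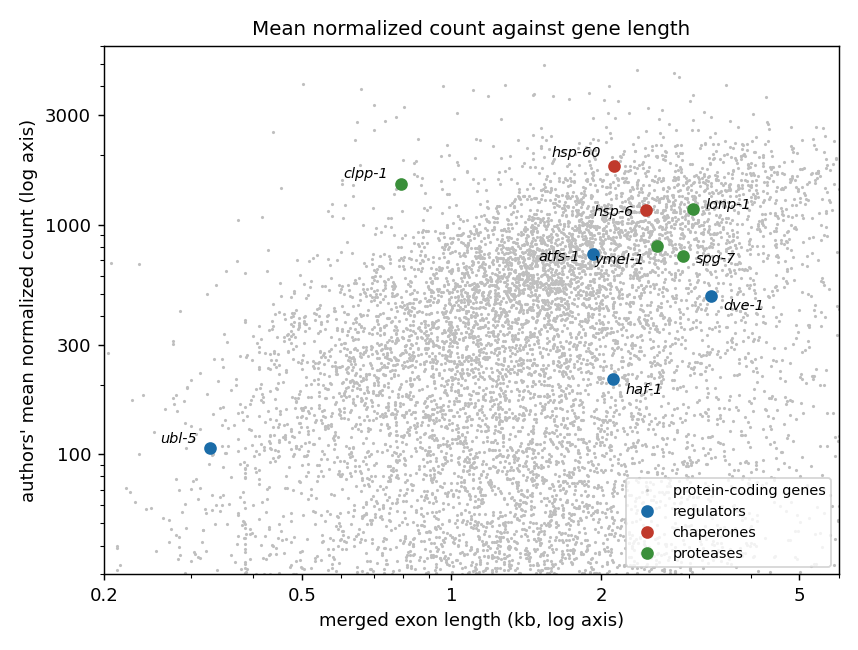
Authors' mean normalized count against merged exon length, both on log axes, with protein-coding genes in grey and the 10 genes coloured by role. The axes show 0.2 to 6 kb and counts of 30 to 6000, so that genes outside this range are not drawn. *ubl-5* and *clpp-1* are the 2 shortest of the 10 and differ 14.2-fold in count.

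*dve-1* and *haf-1* were the lowest of the 10 genes per kb of merged exon. *dve-1* (WBGene00022861, reverse strand of chromosome X from 427035 to 433812) encodes a homeobox protein that acts with UBL-5 at promoters of the response. Its mean normalized count was 489 and its level was 147 per kb of merged exon. The annotation gives *dve-1* 9 coding transcripts, the most of the 10 genes, and its level depended on the length used. It was 202 per kb of its longest transcript and 348 per kb of its longest coding sequence, which is 2.36 times the level per kb of merged exon. By coding sequence, *spg-7*, at 311 per kb, ranked below *dve-1*. *haf-1* (WBGene00001811, forward strand of chromosome IV from 17376427 to 17379310) encodes the ABC transporter of the inner membrane that exports peptides from the matrix. Its mean normalized count was 212 and its level was 100.4 per kb, and *atfs-1* stood 3.86 times higher. The last 64 bases of its exons, 3.04% of their length, overlap *C30H6.9* on the opposite strand, and whether reads were counted by strand is not given in the sources used here.

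*dve-1* is the only X-linked gene of the 10, and X-linked genes are known to be largely silent in the *C. elegans* germline until late oogenesis. The 2366 X-linked protein-coding genes in the table had a median level of 11.6 per kb, against 19.1 for 15335 autosomal ones, and their 75th percentiles were 85.6 and 248. A low median was not particular to the X chromosome. Medians of single autosomes ranged from 5.33 per kb on chromosome V, below that of X, to 80.6 on chromosome III. No cause of these differences was tested. The level of *dve-1* was higher than 83.6% of X-linked protein-coding genes, and higher than 70.3% of all protein-coding genes. The remaining members lie on all 5 autosomes, with *lonp-1*, *ubl-5* and *spg-7* on chromosome I.

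**Figure D3:**
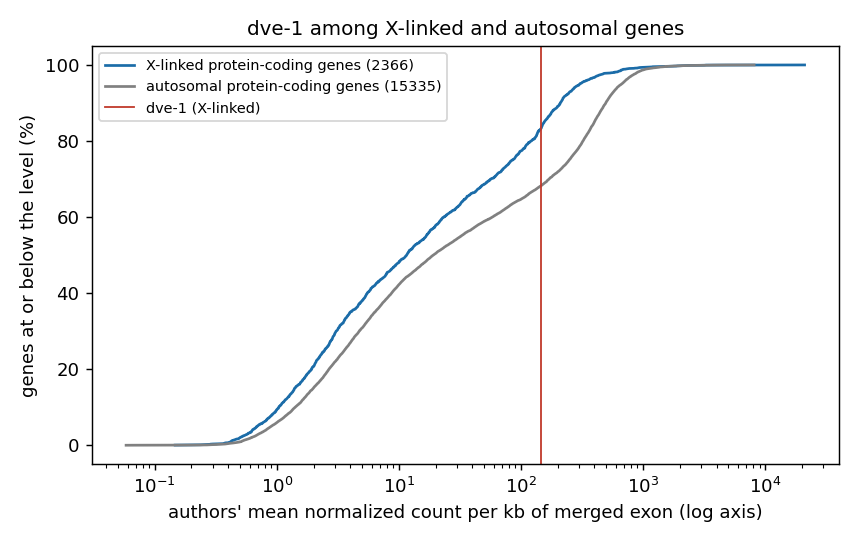
Share of genes at or below each level per kb, on a log axis, for X-linked and autosomal protein-coding genes, with the level of *dve-1* as a vertical line. At the level of *dve-1*, 147 per kb, the X-linked curve lies above the autosomal one, since fewer X-linked genes reach it.

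In their surroundings, 7 of the 10 genes overlap no other annotated gene, and of the other three only *haf-1* shares exon bases. Closely spaced genes on 1 strand are common in *C. elegans*, where many are transcribed together as operons, which the annotation used here does not mark. A protein-coding neighbour on the same strand within 500 bases was found for 4 of the 10. *lonp-1* lies 97 bases from *spcs-1* and 110 bases from *ttc-1*, with levels of 382 per kb for *lonp-1*, 719 for *spcs-1* and 391 for *ttc-1*. *clpp-1* lies 207 bases from *vha-9*, which had a level of 684 per kb, and *ymel-1* lies 251 bases from *M03C11.3*, at 232 per kb. *ubl-5* lies between *tns-1*, 296 bases away at 74.1 per kb, and *vha-10*, 499 bases away at 585 per kb. The level per kb of *clpp-1* was 2.79 times that of *vha-9*, while those of *lonp-1* and *ttc-1* were close.

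The 10 genes were then set beside lists of genes with related work. Other regulators of the response, which are mainly chromatin factors, had a median of 333 per kb over 6 genes, against 353 for the 10 genes. These ranged from 13.5 for *jmjd-3.1*, an X-linked gene of a histone demethylase, to 683 for *hda-1*, which encodes a histone deacetylase, and 5 of the 6 lay above the median protein-coding gene. A further 8 genes of mitochondrial chaperones and prohibitins ranged from 165 (*dnj-21*, a component of the import motor) to 967 (*Y22D7AL.10*) with a median of 455. Within this list the prohibitin genes *phb-1* and *phb-2*, whose products form 1 ring complex in the inner membrane, had levels of 755 and 713 per kb. Another 6 genes listed as mitochondrial proteases ranged from 92.3 (*immp-1*, an inner membrane peptidase) to 433 (*D2030.2*) with a median of 245, and *clpp-1* lay above all 6.

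The nuclear genes of OxPhos subunits, whose products the chaperones fold and the proteases clear, were higher per kb as a list. Over 31 genes the median was 655 per kb, and the levels ranged from 155 for *nuo-3* to 1722 for *atp-1*. Of these 31 genes, 29 lay above the 75th percentile of protein-coding genes and 24 above the 90th, against 8 and 2 of the 10 genes of the stress response. Without division by length the order of the 2 lists was reversed. The median of the mean normalized counts was then 776 for the 10 genes and 575 for the 31 OxPhos genes. No test was made of these differences between lists.

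**Figure D4:**
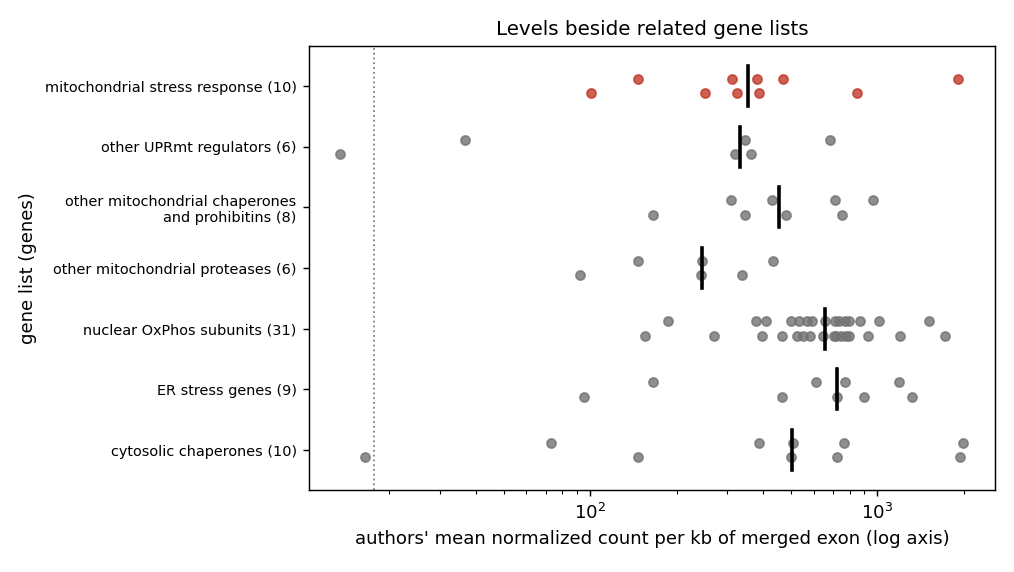
Level per kb of merged exon on a log axis for the 10 genes of the mitochondrial stress response (top, red) and 6 related lists (grey), with the number of genes in parentheses. Each point is a gene, the black bar is the median of the list and the dotted line the median protein-coding gene. The median of the 10 genes was 353 per kb, against 655 for nuclear OxPhos subunits.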

How the data were processed

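RNA of 17 oocyte libraries, 8 from mothers at 300 mM NaCl and 9 from control mothers, had been sequenced after a stranded total RNA kit for small inputs. The authors aligned reads to WBcel235, quantified them with STARsolo, dropped genes under 10 reads in all and ran DESeq2. The submitters' processing notes name STAR and kallisto. Versions, strand setting and which of the labelled libraries were entered are not given in the sources used here. The signal deposited by the authors is the mean normalized count per gene, pooled over libraries. The table's other numeric columns hold the authors' own comparison (log2 fold change, standard error, Wald statistic, p-value, adjusted p) and were not used. Depth per library is unknown, so no precision can be given.

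The planned test of 300 mM NaCl against control (edgeR on counts per library) could not be run. The authors' mean was divided by merged exon length from Ensembl release 115, which held 21399 of 21459 identifiers, and ranked among protein-coding genes. Percentile and length code was tested on simulated data. Alternatives were other lengths, other genes ranked against and no division by length. The members and lists were chosen with earlier results of these data known. The text names all 10 members, the highest and lowest gene of each list, and neighbouring or overlapping genes. Other listed genes (partners and family members of the 10, the prohibitins) were chosen after their values were seen. Of 73 list names, 70 were used: *hsp-10* is a second name for *Y22D7AL.10*, *trap-1* in the table is another gene than the one meant, and R151.7 was not analysed here. For *daf-21*, the current name *hsp-90* was used. Python 3.11.15, numpy 2.4.6, pandas 2.3.3 and matplotlib 3.10.9 were used.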

Additional observations from a re-analysis of the deposited data

How the results depend on the processing

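No paired analysis was possible because the deposited table holds no values of single libraries. For the same reason no other count test, filter on low counts in single libraries, replicate block or fit without a replicate could be run. Since no spread between libraries exists, a level was taken as moved beyond 1.5-fold and a percentile beyond 10 percentage points. All 10 genes lay above the median gene against every gene with a length and without division by length, and 9 did against the 10562 protein-coding genes whose mean reached 10, since *haf-1* lay below their median. Against these genes, the ratio of the members' median to the background median was 2.42 in place of 20.0, and 5 in place of 8 members lay above the 75th percentile, since this background leaves out low genes. The median of the 10 genes, 353 per kb, was 365 from the mean of log2 values and 443 per kb of coding sequence. Of 20 alternative levels of single members, only that of *dve-1* per kb of coding sequence (348) moved. Of 30 alternative percentiles 8 moved, for *dve-1*, *ubl-5*, *haf-1*, *ymel-1* and *spg-7*. Against those 10562 genes, *dve-1* was higher than 50.2% and *haf-1* than 43.6%. Among the related lists, the other regulators moved, with 155 per kb from the mean of log2 values against a median of 333. The median of the regulators was 417 per kb of coding sequence, above the 386 of the proteases. The order of the 4 highest genes was the same per kb of merged exon, longest transcript and coding sequence.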

Other observations

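Chaperones and stress sensors of other compartments gave a further set of levels. For the endoplasmic reticulum, 9 genes had a median of 721 per kb and ranged from 94.9 for *atf-6*, a stress sensor on the X chromosome, to 1318 for *crt-1*, which encodes calreticulin. The transcription factor gene of that response, *xbp-1*, had a level of 897 per kb, and *atfs-1* stood at 0.43 times this level. In the cytosol, 10 genes had a median of 505 per kb. The highest was *hsp-90* (listed as *daf-21*) at 1990.1 per kb, and the lowest was the heat-inducible *hsp-70* at 16.5, below the median protein-coding gene. The heat-shock factor gene *hsf-1* had a level of 387 per kb, and *atfs-1* stood at 1.00 times this level. These genes were chosen after their values were seen, apart from the highest and lowest of each list, and none of the differences was tested.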
